A study of Bos taurus with 50 samples.

Results

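The epithelium of the endometrium rests on a basement membrane over a stroma of collagens and glycoproteins, and 29 genes of this matrix, of the integrins that bind it and of the proteases that cut it were followed here through the first weeks after calving in dairy cows. They were chosen by name: of the genes that the study listed as differing by ovarian status, by week or with the uterine microbiota, those whose symbol is that of a collagen, laminin, nidogen, fibronectin, tenascin, versican, fibulin, thrombospondin, integrin, matrix metalloproteinase (MMP), MMP inhibitor (TIMP) or ADAM or ADAMTS protease, without ITGB4. These are 29 of the 18830 genes in the count table, and all 29 passed the filter on low counts. The study's lists therefore chose the members: 24 of the 29 were on a list of status or week, made from part of the same libraries, and 5 (COL25A1, ITGA9, ITGAV, LAMB1 and LAMC1) were on a microbiota list only. Differences between CycW5 and NoCycW5 and between weeks in those groups are accordingly given as a description, with no P for any member. No list used the 7 libraries of the CycNoP4 group, and a test is given only for the change between weeks within that group. Its fold changes come from those 7 libraries. The spread behind its P values was estimated over all 6 groups, so it draws in part on libraries that chose the members. Where CycNoP4 is set against CycW5 or NoCycW5, the other side holds libraries that chose the members, so those values too are a description.

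Laminins and type IV collagen each form a network in the basement membrane, which nidogen links and on which the epithelium and the blood vessels rest. Fibronectin, tenascin, versican and thrombospondin are loose-matrix proteins that many tissues lay down during growth and repair, and integrins are the paired receptors, 1 alpha and 1 beta chain each, by which cells hold on to these proteins. MMP, ADAM and ADAMTS proteases cut matrix and cell-surface proteins, and TIMP proteins inhibit them. In ruminants the endometrium is rebuilt after calving, and during the estrous cycle its matrix and integrins vary with the ovarian steroids.

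Endometrium was biopsied from first lactation cows of Holstein and Jersey admixture at 5 and 9 weeks after calving, and mRNA was sequenced in 50 biopsies, each 1 library. CycW5 cows were cycling at week 5, with a corpus luteum (CL) and circulating progesterone (10 libraries at week 5 and 10 at week 9), NoCycW5 cows were not cycling at week 5, with a follicle but no CL and progesterone under the assay's limit (12 and 11 libraries), and CycNoP4 cows had been cycling but were not under progesterone at the week 5 biopsy, with no CL or one with a large cavity (4 and 3 libraries). All cows then received the same ovulation synchronization with GnRH, a progesterone insert and prostaglandin F, so that every week 9 biopsy was taken on day 13 of the cycle. Week and synchronization therefore cannot be told apart. Nothing in the labels links the libraries of a cow, so weeks were compared as unpaired, and P values measure the spread between biopsies.

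Libraries held 21592867 to 32813237 counted reads (median 28126022.5), and levels are in CPM, read counts scaled to the size of the library. A CPM depends on gene length, so levels are compared between libraries and not between genes. Of the cell type markers, 4 of 8 epithelial, 3 of 6 endothelial and 1 of 6 stromal genes could be matched to a gene identifier, and none of the smooth muscle, leukocyte and neutrophil genes. The summed epithelial markers (EPCAM, KRT8, KRT5 and MUC1) ran from 285 to 500.2 CPM in NoCycW5 at week 5 (median 379.7), from 325 to 907 CPM in CycW5 (median 549) and from 478 to 825 CPM in CycNoP4 (median 623), and at week 9 their medians were 683, 706 and 555 CPM in NoCycW5, CycW5 and CycNoP4. Summed endothelial markers (VWF, CDH5 and FLT1) had their highest median in NoCycW5 at week 5, 425 CPM, against 292 to 365 CPM in the other 5 groups, and PDGFRA, the stromal marker, had medians of 389.99 to 476 CPM at week 5 and 579 to 802 CPM at week 9. EPCAM, KRT8, MUC1, VWF and PDGFRA were counted in every library, and KRT5 was at 0 in 3 libraries. Each sum follows its most abundant genes: MUC1 ran against the epithelial sum at week 5, with medians of 76.5 CPM in NoCycW5 and 51.3 CPM in CycW5, and FLT1 against the endothelial sum, with 34.8 and 40.9 CPM. The part of these marker levels in the differences below was not tested. In such bulk tissue, fewer cells of a type and less RNA per cell cannot be told apart.

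In all, 6 libraries stood apart from their own groups in these genes, as the map of all 29 genes in all libraries shows. Each lay nearer to the NoCycW5 week 5 median than to the median of its own group's other libraries in more genes than not: CycW5 library 57 in 22 of the 29 genes and library 52 in 19 at week 5, CycW5 libraries 89 and 87 in 20 and 16 at week 9, and NoCycW5 libraries 91 and 76 in 22 and 18 at week 9. Of the other CycW5 and NoCycW5 libraries outside NoCycW5 at week 5, none did so in more than 11 genes. In CycNoP4 at week 5, library 64 did so in 19 genes and the other 3 in 4 to 10. Counts of called genes are also given without the first 6. These were chosen on the values of the same 29 genes, so nothing is read from those counts.

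**Figure D1:**
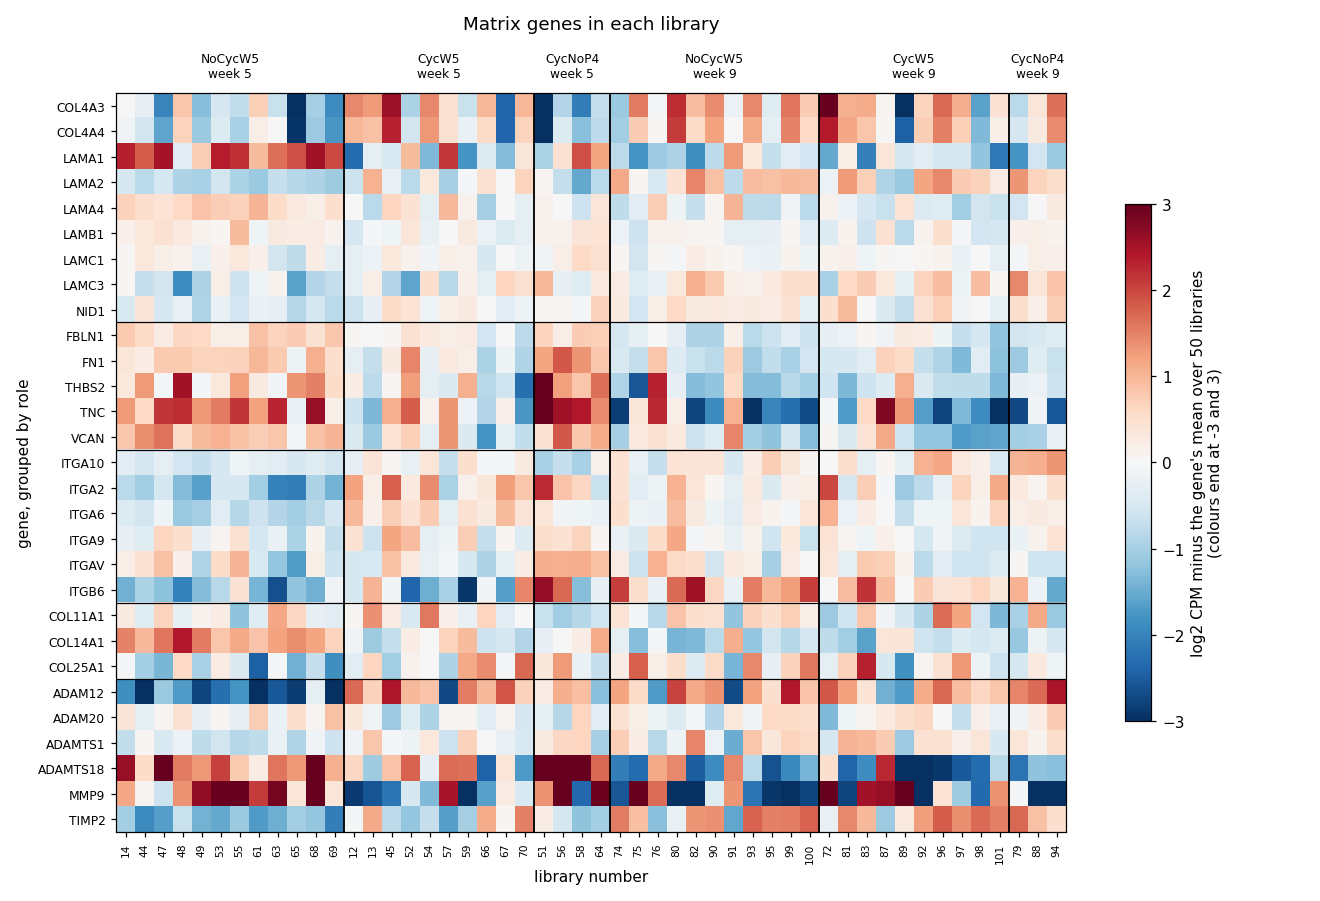
Each row is 1 of the 29 genes, grouped by role, and each column 1 of the 50 libraries, ordered by group and library number; colour is log2 CPM minus the gene's mean over all libraries, in log2 units. ADAM12 is low and COL14A1, LAMA1 and VCAN are high through most of NoCycW5 at week 5, and libraries 57, 76, 87, 89 and 91 carry parts of that pattern in other groups.

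Over the contrasts that chose the members, the edgeR fit called 15 of the 29 between CycW5 and NoCycW5 at week 5 (P of at most 0.05 after Benjamini-Hochberg adjustment, BH P below), 9 higher and 6 lower in CycW5, where it called 26.6% of the 15483 genes tested (15.2% higher and 11.4% lower). From week 5 to week 9 in NoCycW5 it called 22 members, 13 higher and 9 lower at week 9, against 35.7% of all genes (19.4% higher and 16.3% lower). In CycW5 between the weeks 0 members were called (0.0452% of all genes), and between CycW5 and NoCycW5 at week 9 also 0 (0.00646%). At an unadjusted P under 0.05 the counts of those last comparisons were 3 and 1, and DESeq2 and limma-voom also called 0 members in both. The change in NoCycW5 minus the change in CycW5 was called for 6 members, against 7.82% of all genes. Since these contrasts chose the members, nothing is read from the counts. Without the 6 libraries that stood apart, which were chosen for their values in these genes after seeing the data, the counts at week 5 and for the difference of the changes were 23 and 16. The share over all genes was not counted without them, so the percentages above do not apply to these counts. Member medians on the log2 scale were 0.31 for CycW5 minus NoCycW5 at week 5 and 0.16 for the change in NoCycW5, with -0.02 and -0.01 over all genes. Nearest to the threshold in the NoCycW5 change were TNC, just inside it at -1.71 ± 0.65 (log2 fold change ± SE), and THBS2, just outside it at -1.03 ± 0.44. Without library 76 or 91 THBS2 was inside, at -1.79 and -1.11.

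**Figure D2:**
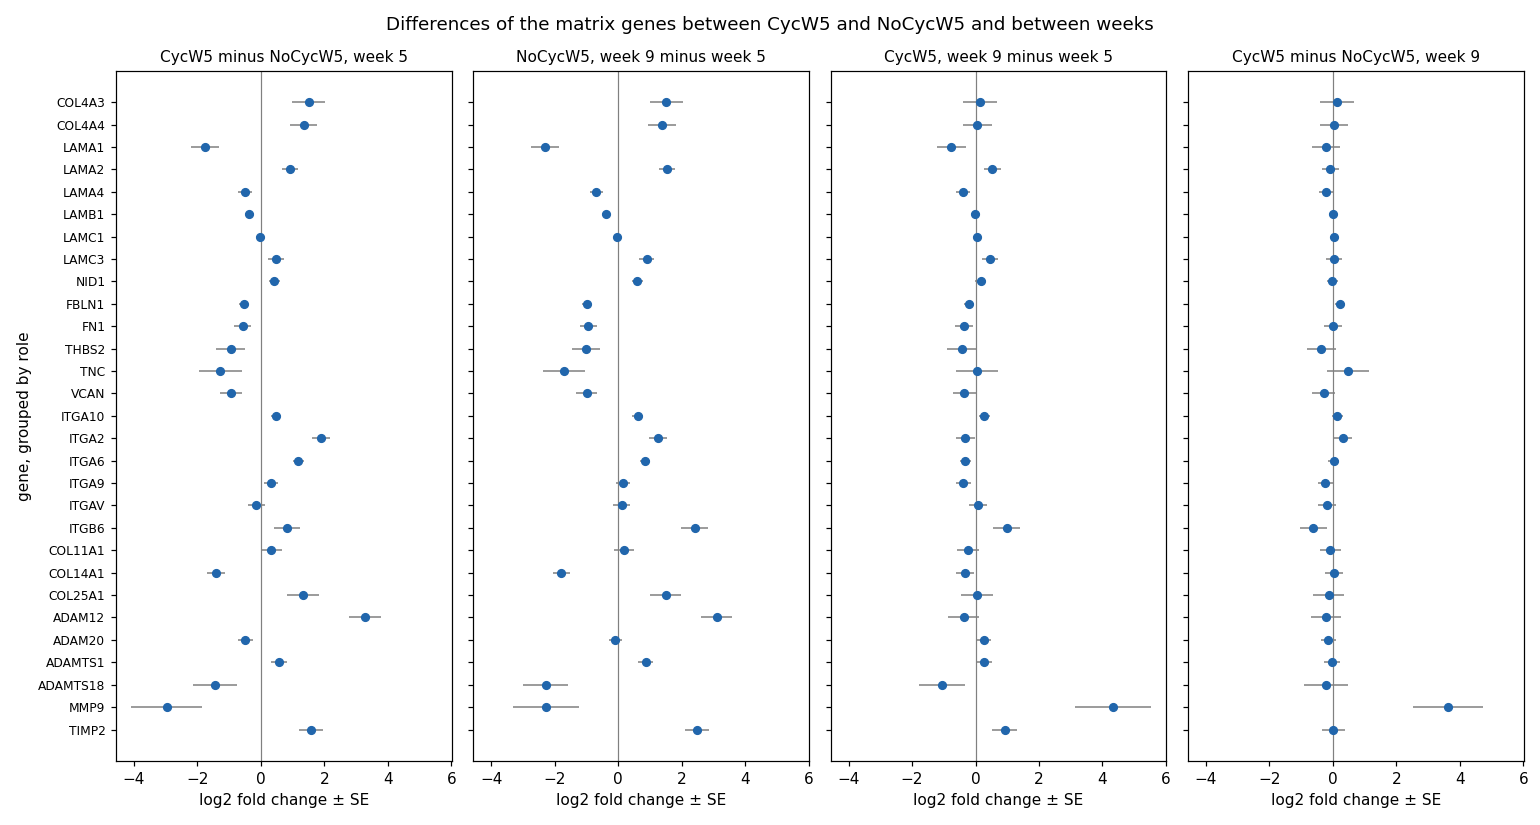
Points are log2 fold changes of the 29 genes and bars 1 SE, in 4 contrasts among the CycW5 and NoCycW5 libraries (43 in the fit). The 2 panels on the left (CycW5 minus NoCycW5 at week 5, and week 9 minus week 5 in NoCycW5) spread from ADAM12, the highest, to LAMA1, ADAMTS18 and MMP9, the lowest, and in the other 2 panels most genes other than MMP9 lie near 0.

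Type IV collagen of the chains COL4A3 and COL4A4, which trimerize with COL4A5 and whose genes are neighbours in RefSeq's annotation, was lowest in NoCycW5 and CycNoP4 at week 5. COL4A3 ran at 1.10, 14.1 and 41.1 CPM (lowest, median and highest) in NoCycW5 at week 5 and at 4.29, 45.99 and 138 CPM in CycW5. At week 9 it ran at 10.6, 43.7 and 107 CPM in NoCycW5 and at 1.87, 42.9 and 197 CPM in CycW5. In CycNoP4 it was at 1.48, 12.6, 5.48 and 14.0 CPM in libraries 51, 56, 58 and 64 at week 5 and at 13.1, 29.9 and 73.1 CPM in libraries 79, 88 and 94 at week 9. Every group overlapped every other, and within CycW5 at week 9 alone library 72 (197 CPM) and library 89 (1.87 CPM) were its extremes. COL4A4 ran at 6.10, 28.3 and 74.7 CPM in NoCycW5 and 9.09, 72.7 and 235 CPM in CycW5 at week 5, at 22.98, 71.7 and 204 CPM and 8.61, 77.8 and 248 CPM at week 9, and in CycNoP4 at 3.87, 35.7, 19.7 and 27.6 CPM and then 33.4, 57.2 and 127 CPM. CycW5 minus NoCycW5 at week 5 was 1.51 ± 0.53 for COL4A3 and 1.35 ± 0.43 for COL4A4, and the change in NoCycW5 was 1.51 ± 0.52 and 1.38 ± 0.43.

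The chains varied together from library to library. Within CycW5 at week 5 log2 CPM of COL4A3 and COL4A4 gave Pearson r = 0.981 and Spearman rho = 0.988 over 10 libraries, and r = 0.958 without the 2 libraries farthest from the median. NoCycW5 at week 5 gave r = 0.962 and rho = 0.944 over 12 libraries, and r = 0.914 without 2. Values of part of these libraries had put both genes on the lists, so this and the other gene pairs below are a description, with no test, and all genes of a library share its depth and composition. The ratio of COL4A4 to COL4A3 counts, not corrected for length, had a median of 1.91 over the 50 libraries and ran from 1.18 to 5.55. Its highest values were 5.55 in NoCycW5 library 65 of week 5, where COL4A3 was at 1.10 CPM, and 4.60 in CycW5 library 89 of week 9.

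**Figure D3:**
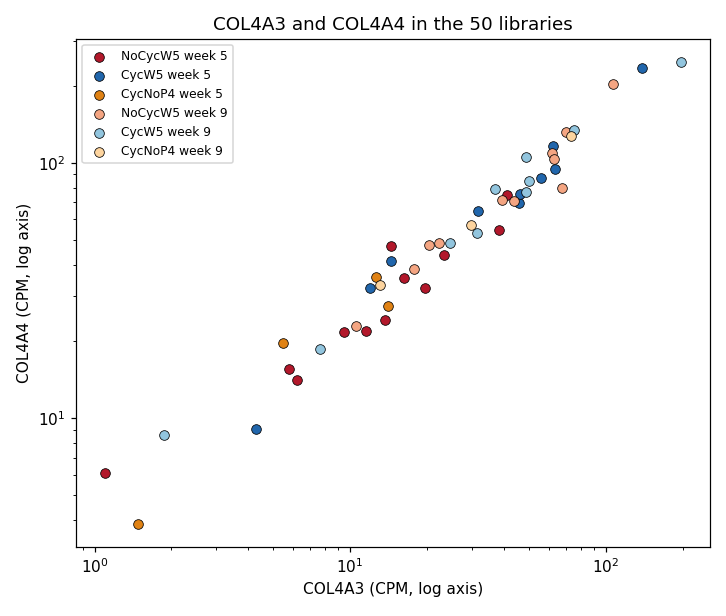
Each point is 1 of the 50 libraries, with COL4A3 on the horizontal and COL4A4 on the vertical axis, both in CPM on log axes, coloured by group. The points of all 6 groups lie along 1 band, from 1.10 to 197 CPM of COL4A3, and the CycNoP4 libraries of week 5 are in its lower part.

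Of the laminin chains, LAMA1 and LAMA2 differed most and in opposite directions. LAMA1, an alpha chain of early and epithelial basement membranes, ran at 3.098, 15.4 and 22.7 CPM in NoCycW5 and at 0.733, 2.86 and 17.2 CPM in CycW5 at week 5, where library 57 gave the highest value of CycW5 and the next was 7.51 CPM in library 52. At week 9 it ran at 1.04, 2.22 and 9.47 CPM in NoCycW5, with library 91 highest, and at 0.816, 2.69 and 5.05 CPM in CycW5, and in CycNoP4 it was at 1.98, 5.38, 15.1 and 8.91 CPM and then 1.09, 2.59 and 1.77 CPM. LAMA2, the alpha chain of muscle and stromal laminin, ran at 99.7, 116 and 155 CPM in NoCycW5 and 107, 210.5 and 439 CPM in CycW5 at week 5. Its week 9 values were 125, 397 and 587 CPM in NoCycW5 and 99.2, 351 and 578 CPM in CycW5, and in CycNoP4 it was at 225, 132, 73.9 and 122 CPM at week 5 and 534, 341 and 307 CPM at week 9. NoCycW5 libraries of week 5 were close together for LAMA2, and 10 of the 11 week 9 libraries lay above all of them, library 76 by under 1 CPM, and library 91 did not. The change in NoCycW5 was -2.31 ± 0.44 for LAMA1 and 1.52 ± 0.25 for LAMA2, and CycW5 minus NoCycW5 at week 5 was -1.76 ± 0.44 and 0.92 ± 0.26.

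LAMC1, the common gamma chain, had the smallest spread of all 29 genes within groups (pooled SD 0.25 on the log2 scale) and stood at medians of 171 to 225 CPM in the 6 groups. Its CycW5 minus NoCycW5 difference was -0.04 ± 0.11 at week 5 and 0.03 ± 0.11 at week 9, and its change in NoCycW5 -0.04 ± 0.11. LAMB1, the common beta chain, had the next smallest spread (0.30) and was a little higher in NoCycW5 at week 5, with 481, 616 and 1017 CPM, than in CycW5, with 367, 467 and 669 CPM (-0.37 ± 0.14). LAMA4, the alpha chain of vessel and stromal basement membranes, ran at 308 to 549 CPM (median 409) in NoCycW5 at week 5 and at 156 to 548 CPM (median 214) at week 9 (-0.69 ± 0.21), where libraries 76 and 91 kept 456 and 548 CPM. LAMC3, a gamma chain of restricted distribution, and NID1, the linker nidogen, had higher medians at week 9 than at week 5 in NoCycW5, with 96.5 against 49.95 CPM (0.89 ± 0.24) and 157 against 93.8 CPM (0.60 ± 0.16). The laminin chains did not all differ one way: between the weeks in NoCycW5, LAMA2 and LAMC3 were higher, LAMA1, LAMA4 and LAMB1 lower and LAMC1 within its SE of 0.

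Partner genes of the laminin network were also set against each other within the week 5 groups. LAMA4 and LAMC1, which the same microbiota list held, gave r = 0.864 and rho = 0.903 in CycW5 over 10 libraries, and r = 0.781 without the 2 farthest libraries. In NoCycW5 the same pair gave r = 0.2 and rho = 0.021 over 12 libraries. NID1 and LAMC1 gave r = 0.695 in CycW5 and r = 0.503 in NoCycW5. LAMB1 and LAMC1 gave r = 0.494 and 0.262. Whether the groups differ in these values was not tested.

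Among the other collagens, COL14A1 was highest in NoCycW5 at week 5. This collagen sits on the surface of collagen fibrils in loose connective tissue. It ran at 88.1, 126 and 292 CPM in NoCycW5 at week 5, at 26.5, 44.9 and 107 CPM in CycW5, and in CycNoP4 at 46.4, 54.4, 64.3 and 119.8 CPM in libraries 51, 56, 58 and 64. Only CycW5 libraries 57 and 59 (88.3 and 107 CPM) and CycNoP4 library 64 reached the range of NoCycW5 among the week 5 libraries of the other groups. At week 9 it ran at 21.1, 31.4 and 117 CPM in NoCycW5, with library 91 highest and all others at or under 53.3 CPM, at 18.1, 37.2 and 72.7 CPM in CycW5, and at 25.004, 49.8 and 39.4 CPM in CycNoP4. CycW5 minus NoCycW5 at week 5 was -1.41 ± 0.28, the change in NoCycW5 -1.79 ± 0.28 and the change in CycW5 -0.34 ± 0.28. COL11A1, a minor fibrillar collagen, ran at 5.67 to 29.9 CPM (median 12.7) in NoCycW5 and 9.58 to 39.7 CPM (median 14.2) in CycW5 at week 5, and all 4 CycNoP4 libraries of week 5, at 8.32, 6.40, 7.33 and 8.71 CPM, lay under every CycW5 library. COL25A1, a membrane-spanning collagen, was barely counted, with 0 to 58 reads per library (median 9), and its differences rest on those few reads: CycW5 minus NoCycW5 at week 5 was 1.32 ± 0.50 and the change in NoCycW5 1.501 ± 0.49.

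The 5 glycoproteins and proteoglycans were each lower in CycW5 than in NoCycW5 at week 5 and lower at week 9 than at week 5 in NoCycW5, and each had a higher median in CycNoP4 than in CycW5 at week 5. Fibronectin (FN1), the main scaffold of provisional matrix, ran at 1081, 1926 and 2504 CPM in NoCycW5 and 620.1, 1041 and 3279.8 CPM in CycW5 at week 5, where library 52 held the highest value and the next was 1461 CPM in library 57. At week 9 it ran at 560.1, 756 and 2116 CPM in NoCycW5 and 476, 845 and 1946 CPM in CycW5. Libraries 76 and 91 of NoCycW5 (2116 and 1938 CPM) and 87 and 89 of CycW5 (1946 and 1755 CPM) were well above the rest of their groups, whose highest values were 913 and 967 CPM. CycNoP4 was at 2720.1, 4335, 3002 and 2111 CPM in its 4 libraries of week 5 and at 563, 936 and 753 CPM in its 3 of week 9, with no overlap. CycW5 minus NoCycW5 at week 5 was -0.57 ± 0.27 for FN1, and -0.85 without library 52.

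Tenascin (TNC), which is laid down in remodelling stroma, varied widely within every group (pooled SD 1.48 on the log2 scale). It ran at 313, 989.7 and 2247 CPM in NoCycW5 and 109.6, 363 and 1289 CPM in CycW5 at week 5. Week 9 values were 42.7, 93.0 and 1767 CPM in NoCycW5 and 34.4, 132 and 2502 CPM in CycW5, with library 76 highest in NoCycW5 and library 87 in CycW5. In CycNoP4 it was at 4806, 2154, 1928 and 977 CPM in libraries 51, 56, 58 and 64 of week 5, the first 3 of them above the NoCycW5 median and the last close to it, and at 56.4, 348 and 63.1 CPM in libraries 79, 88 and 94 of week 9. CycW5 minus NoCycW5 at week 5 was -1.27 ± 0.66 and the change in NoCycW5 -1.71 ± 0.65.

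Versican (VCAN), a large chondroitin sulfate proteoglycan of hydrated stroma, ran at 156, 302 and 506 CPM in NoCycW5 and 47.0, 129 and 412 CPM in CycW5 at week 5, at 67.9, 114 and 450.3 CPM and 50.2, 90.7 and 359 CPM at week 9, and in CycNoP4 at 220.4, 599.7, 289 and 354 CPM and then 80.8, 82.8 and 143 CPM. Its highest CycW5 value at week 5 came again from library 57 and its highest week 9 values from libraries 91 and 87. Fibulin (FBLN1), which binds fibronectin and elastic fibres, varied little within groups (pooled SD 0.35) and separated the weeks in NoCycW5 without overlap. It ran at 821, 1115 and 1346 CPM there at week 5 and 383, 518 and 819 CPM at week 9 (-0.999 ± 0.15), at 421, 753 and 1008 CPM and 319.8, 652 and 885 CPM in CycW5, and at 1160.4, 835, 1228 and 1203 CPM and then 500.1, 535 and 572 CPM in CycNoP4. Of the 29 genes, FBLN1 and ITGA2 were the ones whose NoCycW5 libraries did not overlap between weeks, and the share over all genes was not counted. Thrombospondin (THBS2), a matrix protein that restrains vessel growth, ran at 11.3, 16.3 and 69.2 CPM in NoCycW5 and 2.44, 9.38 and 28.7 CPM in CycW5 at week 5, and at 1.95, 5.85 and 59.2 CPM and 4.66, 7.45 and 24.9 CPM at week 9. CycNoP4 library 51 stood far above all others at 251 CPM, with 28.1, 21.3 and 37.8 CPM in libraries 56, 58 and 64, and 10.1, 10.6 and 7.79 CPM at week 9.

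Of the integrin chains, ITGA2 and ITGA6 were lowest in NoCycW5 at week 5. ITGA2, the collagen-binding alpha chain of epithelium and platelets, ran at 6.74, 13.9 and 20.4 CPM there, at 14.6, 43.3 and 98.3 CPM in CycW5 and at 134, 51.8, 43.5 and 17.7 CPM in CycNoP4. Library 57 of CycW5 and library 64 of CycNoP4 were the ones that lay in the NoCycW5 range. At week 9 ITGA2 ran at 20.9, 31.6 and 58.7 CPM in NoCycW5 and 13.3, 29.9 and 113 CPM in CycW5, and at 35.1, 29.97 and 40.4 CPM in CycNoP4. ITGA6, an alpha chain of epithelial laminin receptors, ran at 114, 149 and 226 CPM in NoCycW5 and 201, 334 and 481 CPM in CycW5 at week 5, at 313, 233, 223 and 213 CPM in CycNoP4, and at week 9 at 196, 265 and 466.1 CPM and 149.9, 256 and 504 CPM in NoCycW5 and CycW5. CycW5 minus NoCycW5 at week 5 was 1.89 ± 0.30 for ITGA2 and 1.18 ± 0.16 for ITGA6, and the change in NoCycW5 was 1.24 ± 0.29 and 0.84 ± 0.16. Of the 4 epithelial markers, KRT8 (0.78 ± 0.12 and 0.64 ± 0.12) and EPCAM (0.71 ± 0.24 and 1.09 ± 0.23) were higher in both contrasts too, MUC1 (-0.54 ± 0.22 and -0.20 ± 0.22) was lower in both, and KRT5 was 0.36 ± 0.73 and -0.27 ± 0.72. Their part in these values was not tested.

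ITGB6, an epithelial beta chain that pairs with ITGAV to bind fibronectin and release TGF beta from its latent form, was low at week 5 in both NoCycW5 (1.19, 3.21 and 10.5 CPM) and CycW5 (0.967, 4.75 and 21.7 CPM). It ran at 6.83, 18.7 and 45.6 CPM in NoCycW5 and 7.71, 11.3 and 35.5 CPM in CycW5 at week 9, so that its change in NoCycW5 was 2.41 ± 0.41. In CycNoP4 it was at 48.8, 26.05, 3.17 and 6.62 CPM at week 5, high in libraries 51 and 56 and low in 58 and 64, and at 16.1, 6.95 and 2.64 CPM at week 9. Its partner ITGAV, by contrast, had like medians in the first 4 of these groups: 62.2 and 46.7 CPM in NoCycW5 and CycW5 at week 5 and 65.0 and 44.8 CPM at week 9. CycNoP4 at week 5 stood at 118, 117, 117 and 102 CPM, above the highest CycW5 value (102 CPM) in libraries 51, 56 and 58, and at week 9 at 56.5, 36.3 and 36.4 CPM. Levels of ITGAV and ITGB6 gave r = 0.075 over 10 CycW5 libraries of week 5 and r = 0.391 over 12 of NoCycW5.

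ITGA10, a collagen-binding alpha chain known from cartilage, was close together in NoCycW5 at week 5 (13.1, 15.9 and 19.3 CPM) and ran at 13.0, 26.9 and 35.4 CPM at week 9 (0.61 ± 0.16). CycW5 ran at 13.0, 21.4 and 29.4 CPM and then 15.6, 22.96 and 47.9 CPM, and CycNoP4 at 10.8, 13.1, 10.7 and 23.3 CPM at week 5 and 43.05, 45.0 and 52.9 CPM at week 9. ITGA9, an alpha chain that binds tenascin, ran at 7.41 to 22.6 CPM (median 12.3) in NoCycW5 and 8.77 to 32.8 CPM (median 13.9) in CycW5 at week 5. Its CycW5 minus NoCycW5 difference was 0.31 ± 0.23 and its change in NoCycW5 0.16 ± 0.22. Its pooled SD within groups was 0.50. Between libraries, ITGA9 followed TNC in NoCycW5 at week 5, with r = 0.838 and rho = 0.853 over 12 libraries and r = 0.675 without the 2 farthest, and in CycW5 the pair gave r = 0.64 and rho = 0.685 over 10 libraries.

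ADAM12, a disintegrin and metalloproteinase of growing stroma and placenta, had the largest CycW5 minus NoCycW5 difference at week 5 of the 29 genes (3.27 ± 0.50). It ran at 0.621, 2.42 and 10.7 CPM in NoCycW5 and at 1.94, 25.4 and 70.1 CPM in CycW5. Library 57 was the one CycW5 library in the NoCycW5 range, and the next lowest was 21.1 CPM in library 13. Week 9 values were 1.962, 28.4 and 68.9 CPM in NoCycW5 and 3.97, 23.9 and 47.6 CPM in CycW5, where libraries 91 and 76 (1.962 and 3.96 CPM) and libraries 89 and 87 (3.97 and 4.76 CPM) gave the low values and all others were at 17.2 CPM or more. CycNoP4 was at 15.4, 27.6, 24.3 and 5.44 CPM in libraries 51, 56, 58 and 64 at week 5 and at 36.2, 42.5 and 71.5 CPM in its week 9 libraries.

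TIMP2, an MMP inhibitor that also takes part in activating a gelatinase, ran at 142, 219.6 and 372 CPM in NoCycW5 at week 5 and 202, 1552 and 2034 CPM at week 9 (2.47 ± 0.37). In CycW5 at week 5 the median was 471 CPM, but libraries 66, 13 and 70 held 1290.1, 1301 and 1709 CPM and the other 7 held 188 to 623 CPM. CycW5 at week 9 ran at 278, 1488 and 2093 CPM. The same 3 libraries of CycW5 at week 5 had the lowest FN1 (620.1, 733 and 643 CPM), TNC (201, 144 and 109.6 CPM) and ADAMTS18 (0.341, 0.988 and 0.600 CPM) of their group and its 3 highest LAMA2 values (292, 439 and 338 CPM). Of the epithelial markers, EPCAM was also highest in them (573, 535 and 666 CPM, against at most 311 CPM in the rest), KRT8 at 163, 184 and 189 CPM was within the range of the rest, and MUC1 at 28.4, 40.6 and 51.7 CPM was lowest of the group in library 66. KRT5, at 0.102, 0.141 and 0.360 CPM, was lowest of the group in libraries 66 and 13. The part of these markers was not tested. These libraries were picked for their TIMP2 values, so the other values are a description. CycNoP4 was at 693, 414, 256 and 292 CPM at week 5 and 1966, 1101 and 851 CPM at week 9.

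MMP9, a gelatinase that neutrophils and other leukocytes carry, had the widest spread of the 29 genes within groups (pooled SD 2.37 on the log2 scale), and no neutrophil or leukocyte marker could be read beside it. It ran at 1.16, 6.48 and 83.5 CPM in NoCycW5 and 0.0967, 0.620 and 10.6 CPM in CycW5 at week 5, and at 0.0746, 0.252 and 18.002 CPM and 0.149, 3.66 and 281 CPM at week 9. Library 89 of CycW5 at week 9 held the highest value, 281 CPM, and the next was 26.4 CPM in library 72. Differences were -2.97 ± 1.11 between CycW5 and NoCycW5 at week 5, 3.63 ± 1.11 at week 9 and 4.33 ± 1.199 for the change in CycW5, and without library 89 the last 2 were 1.17 and 1.86. CycNoP4 was at 4.82, 19.3, 0.302 and 14.7 CPM and then 1.81, 0.0404 and 0.0311 CPM.

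ADAMTS18, a secreted protease of the ADAMTS family, ran at 2.55, 5.92 and 35.8 CPM in NoCycW5 and 0.341, 3.08 and 7.48 CPM in CycW5 at week 5, and at 0.292, 0.535 and 6.01 CPM and 0.117, 0.365 and 10.6 CPM at week 9, where libraries 80, 91 and 76 of NoCycW5 and library 87 of CycW5 gave the highest values. Its CycNoP4 libraries held 22.4, 20.2, 18.5 and 7.26 CPM at week 5 and 0.409, 0.889 and 0.870 CPM at week 9. ADAMTS1, which cuts versican and is known from ovulation, ran the other way, with medians of 160.0 CPM in NoCycW5 and 229 CPM in CycW5 at week 5 and of 305 and 317 CPM at week 9. The change of ADAMTS1 in NoCycW5 was 0.86 ± 0.24. ADAM20, known from the testis, had 7 to 37 reads per library (median 19.5) and differed between CycW5 and NoCycW5 at week 5 by -0.49 ± 0.23.

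**Figure D4:**
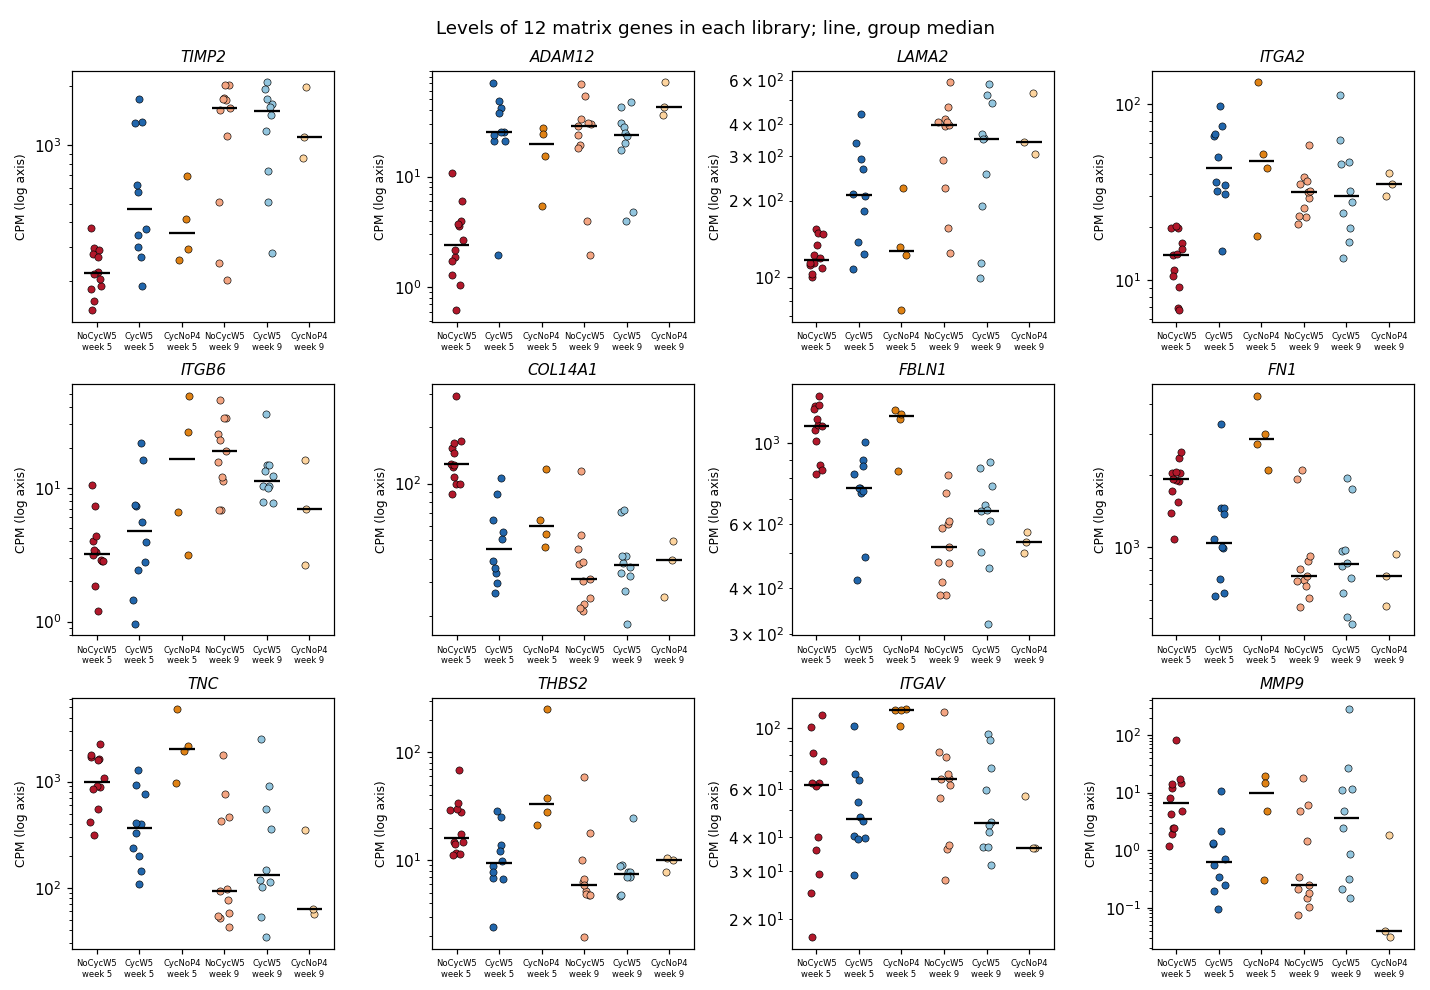
CPM of 12 of the genes in each library (points, log axes) by group, with a line at the group median. ADAM12 and TIMP2 are low in NoCycW5 at week 5, FBLN1 does not overlap between weeks in NoCycW5, and FN1, TNC, THBS2 and ITGAV have their highest medians in CycNoP4 at week 5.

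In CycNoP4, whose libraries no list used, 9 of the 29 genes changed from week 5 to week 9, 2 upward and 7 downward, and the fit of all 6 groups called 19.6% of 16120 genes (9.74% higher and 9.85% lower at week 9). All 5 glycoproteins and proteoglycans among the 29 genes fell, each with all 3 libraries of week 9 under all 4 of week 5. On the log2 scale, FN1 changed by -2.02 ± 0.48 (BH P = 0.00572), FBLN1 by -1.05 ± 0.26 (BH P = 0.00752) and VCAN by -1.84 ± 0.63 (BH P = 0.034). THBS2 changed by -3.15 ± 0.91 (BH P = 0.0153) and TNC by -3.99 ± 1.32 (BH P = 0.03). On a linear scale the changes ran from 2.07-fold lower for FBLN1 to 15.8-fold lower for TNC. ADAMTS18, at -4.56 ± 1.40 (BH P = 0.0203), also fell, as did ITGAV at -1.39 ± 0.47 (BH P = 0.0327). ITGA10 rose by 1.70 ± 0.30 (BH P = 0.000876), with all 3 week 9 libraries above all 4 of week 5, and LAMA2 rose by 1.51 ± 0.45 (BH P = 0.0183).

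The median over the 29 genes was -0.21, and -0.02 over all genes tested. ADAM12 and TIMP2 also had every week 9 library above every week 5 library in CycNoP4, but at 1.46 ± 0.81 (BH P = 0.188) and 1.66 ± 0.63 (BH P = 0.0569) they did not pass. Neither did COL4A3 at 2.20 ± 0.95 (BH P = 0.0893), LAMA1 at -2.11 ± 0.81 (BH P = 0.0578), MMP9 at -3.95 ± 2.14 (BH P = 0.178) or COL14A1 at -0.90 ± 0.49 (BH P = 0.176). In all, 11 of the 29 genes did not overlap between the weeks in this group of 4 against 3. The share over all genes was not counted, so nothing is read from that number. Of the markers, EPCAM, KRT8, MUC1, VWF and PDGFRA differed between these weeks by 0.15 ± 0.42, -0.36 ± 0.24, -0.14 ± 0.40, -0.26 ± 0.34 and 0.76 ± 0.30 and did not pass. KRT5, CDH5 and FLT1, at 0.87 ± 1.28, 0.10 ± 0.25 and 0.03 ± 0.255, did not pass either.

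The fold changes of these calls rested on 7 libraries, and their spread was estimated over all 50. Members called were 3 without library 79 and 4 without library 94, with the share over all genes not counted. Without the 6 CycW5 and NoCycW5 libraries that stood apart they were 11, with the share over all genes not counted. FN1, FBLN1 and ITGA10 passed when each of the 7 was left out in turn, and none of the 9 changed direction. THBS2 was -1.61 (BH P = 0.176) without library 51, -3.23 (BH P = 0.0594) without 79 and -3.07 (BH P = 0.0668) without 94. TNC lost its call without the same 3 libraries, and its fold change ran from -5.40 to -3.44 with BH P up to 0.12. VCAN lost its call without 56 at -1.49 (BH P = 0.112), and without 79, 88 or 94. ADAMTS18 lost it without 79, 88 or 94, LAMA2 without 58 or 79, and ITGAV without any library but 64. The change in CycNoP4 minus the change in NoCycW5, a comparison added after both changes had been seen, was called by edgeR for 0 of the 29 genes (0.0434% of all genes), and 6 had an unadjusted P under 0.05. DESeq2 and limma-voom were not run for it. Its NoCycW5 libraries had put members on the lists, so it is a description. For ITGB6 it was -3.71 ± 0.97, with -1.31 ± 0.81 in CycNoP4 and 2.41 ± 0.41 in NoCycW5.

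At week 5 neither CycNoP4 nor NoCycW5 was under progesterone. By the study's methods, CycNoP4 cows had circulating progesterone at week 4, and NoCycW5 cows had none detected up to week 5. Past progesterone, past cycling and the stage of the cycle cannot be told apart between these groups. The fit called 7 of the 29 genes between them, all 7 higher in CycNoP4, and 16.4% of all genes (9.92% higher and 6.52% lower). Values of NoCycW5 libraries had put most of these genes on the lists, so nothing is read from the count, and the values are a description. Integrin chains made up 4 of the 7, ITGB6 at 2.41 ± 0.54, ITGA2 at 2.18 ± 0.38, ITGAV at 0.95 ± 0.33 and ITGA6 at 0.65 ± 0.21. ADAM12 was 5.54-fold higher (2.47 ± 0.57), THBS2 3.54-fold higher (1.82 ± 0.56) and NID1 1.52-fold higher (0.61 ± 0.22). All 4 CycNoP4 libraries were above the NoCycW5 median in each of ADAM12, ITGA2, ITGA6, ITGAV, NID1 and THBS2, and 3 of 4 in ITGB6. The medians were 0.48 over the members and -0.01 over all genes. FN1 was at 0.70 ± 0.33 and COL14A1 at -0.99 ± 0.38, and COL14A1 was -1.36 and called without library 64. Of the markers, KRT8 (0.92 ± 0.17), EPCAM (0.87 ± 0.30) and the endothelial FLT1 (0.64 ± 0.19) were higher in CycNoP4 too, while MUC1 was at -0.23 ± 0.31, VWF at -0.46 ± 0.26, CDH5 at -0.07 ± 0.19 and KRT5 at 1.01 ± 0.95, and their part was not tested.

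Fewest genes were called without library 51, 1 of the 29, ADAM12 at 2.54, and without library 56 there were 4. The share over all genes was not counted in these fits, so nothing is read from the counts. THBS2 was 0.28 without library 51, ITGB6 1.59 and ITGA2 1.47. ADAM12 was called in all 16 fits that left out 1 library, ITGA6 in 14, ITGAV in 8 and NID1 in 7. Without the 6 CycW5 and NoCycW5 libraries that stood apart, 11 genes were called, with the share over all genes not counted.

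CycNoP4 and CycW5 cows had both been cycling by week 5, but only CycW5 was under progesterone at the biopsy. Progesterone, the state of the CL and the stage of the cycle cannot be told apart between these groups. The fit called 9 of the 29 genes between them, 7 higher and 2 lower in CycNoP4, and 17.9% of all genes (9.62% higher and 8.29% lower). Values of CycW5 libraries had likewise put genes on the lists, COL4A3 and COL4A4 among them, and nothing is read from this count either. The glycoproteins THBS2 (2.78 ± 0.58), FN1 (1.27 ± 0.33), TNC (2.36 ± 0.81), FBLN1 (0.57 ± 0.19) and VCAN (1.16 ± 0.44) were all higher in CycNoP4, VCAN without a call. ITGAV at 1.09 ± 0.34 and ITGB6 at 1.60 ± 0.57, whose chains pair, were higher as well, as was ADAMTS18 at 2.27 ± 0.82. ITGB6 was above every CycW5 library only in CycNoP4 libraries 51 and 56. COL4A3 and COL4A4 were the lower pair, at -2.50 ± 0.85 and -1.93 ± 0.68. ADAM12 was at -0.80 ± 0.66 and ITGA2 at 0.28 ± 0.41, neither called. The medians were 0.28 over the 29 genes and -0.0022 over all genes. Both comparisons share the CycNoP4 libraries.

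Here 1 gene was called without library 51, FN1 at 1.32, and THBS2 was 1.24. Without library 56 there were 2 and without 58 there were 3, and leaving out CycW5 library 12, 45, 54 or 66 left 5. The share over all genes was not counted in these fits, so nothing is read from the counts. FN1 and THBS2 were called in 13 of 14 such fits, ITGAV in 11, COL4A3 in 10, FBLN1 in 9, COL4A4 in 7 and TNC, ADAMTS18 and ITGB6 in 4 each. None of the 9 changed direction. Without the 6 CycW5 and NoCycW5 libraries that stood apart, 17 genes were called, with the share over all genes not counted.

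**Figure D5:**
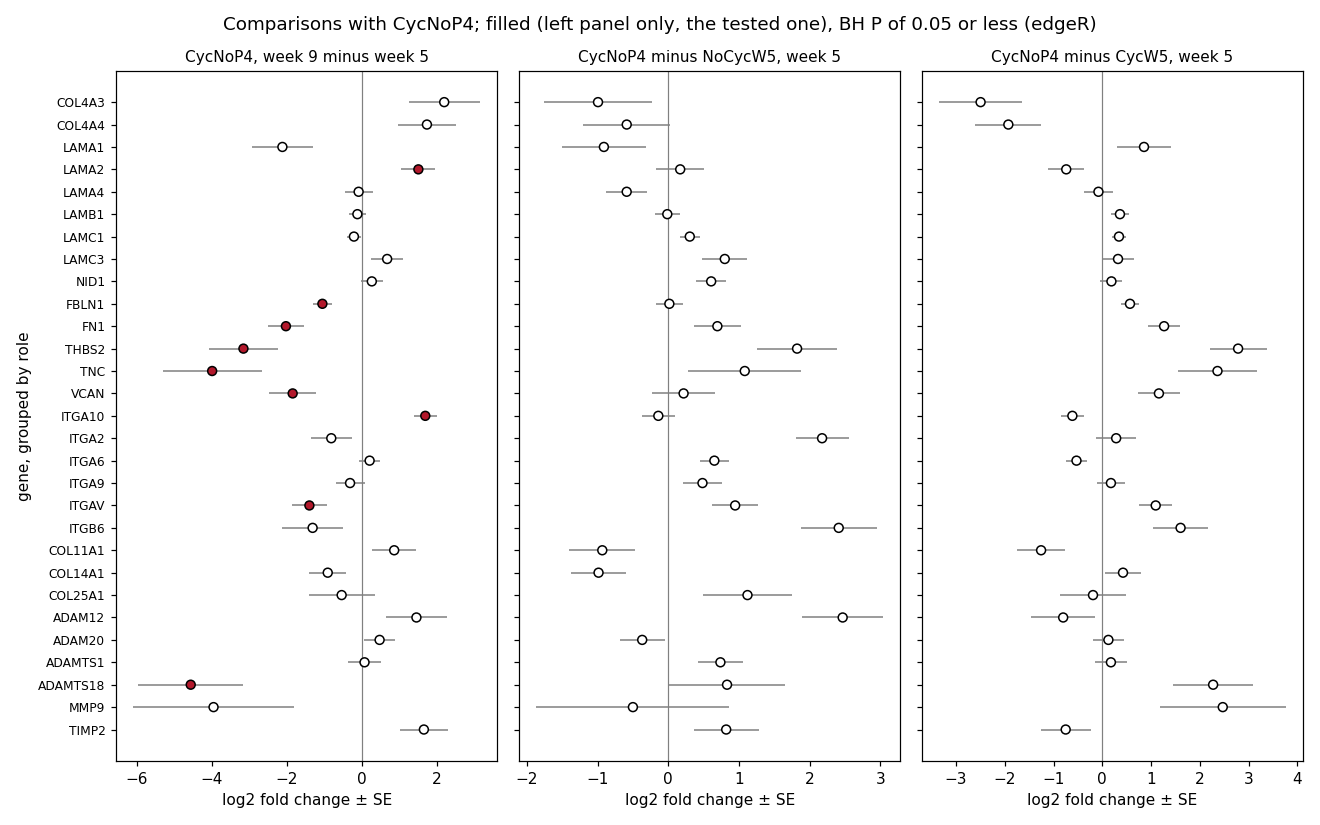
Points are log2 fold changes of the 29 genes and bars 1 SE in 3 comparisons of CycNoP4. In the left panel, the change between weeks, the 9 filled points are genes with a BH P of at most 0.05. Among them are the 5 glycoproteins and proteoglycans of the 29 genes, all left of 0. The other panels carry no test, and the horizontal scales differ.

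At week 9, on day 13 of a synchronized cycle, CycNoP4 minus the mean of CycW5 and NoCycW5 was called for 0 of the 29 genes and for 0% of all genes, with 1 member at an unadjusted P under 0.05 and 0 called by DESeq2 or limma-voom. That member was ITGA10 at 0.88 ± 0.22, where CycNoP4 libraries at 43.05, 45.0 and 52.9 CPM were matched only by CycW5 libraries 96 and 92 (47.9 and 44.2 CPM). FN1 was at -0.37 ± 0.38, TNC at -1.42 ± 1.02 and TIMP2 at 0.00 ± 0.51. The other side of this comparison also holds libraries that chose members. For CycW5 minus NoCycW5 at week 9 the differences ran from -0.61 ± 0.42 for ITGB6 to 3.63 ± 1.11 for MMP9, and the 9 basement membrane genes were between -0.22 and 0.14.

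Other matrix genes were taken from a list of 175 symbols, of which 34 could be matched to an identifier, 28 of them members. All 34 were on a list of the study, so they too were chosen by these data. Called genes numbered 18 for CycW5 minus NoCycW5 at week 5 (26.6% of all genes were called), 26 for the change in NoCycW5 (35.7%), 12 for the change in CycNoP4 (19.6%), 8 for CycNoP4 minus NoCycW5 (16.4%) and 12 for CycNoP4 minus CycW5 (17.9%). The 6 that are no members were ELN (elastin), SPP1 (osteopontin), TGFBI, LTBP1, LTBP4 and ITGB4. In the tested comparison, LTBP1, which holds latent TGF beta in the matrix, fell from week 5 to week 9 in CycNoP4, at -1.60 ± 0.54 (BH P = 0.0339) and TGFBI, an integrin-binding matrix protein, also fell, at -1.74 ± 0.61 (BH P = 0.0397), while ITGB4, the laminin-binding chain of hemidesmosomes, rose by 1.42 ± 0.42 (BH P = 0.0181). As a description, LTBP4 was lower in CycNoP4 than in NoCycW5 at week 5, at -1.25 ± 0.36, and against CycW5 LTBP1 at 1.25 ± 0.38 and TGFBI at 1.26 ± 0.43 were higher and ITGB4 at -1.49 ± 0.36 lower. ELN and SPP1 were not called in any of these 3 comparisons. Of the listed glycoproteins that are no members, ELN (-0.30 ± 0.33), SPP1 (-2.12 ± 1.03) and LTBP4 (-0.02 ± 0.44) were not called for the change in CycNoP4.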

How the data were processed

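Endometrial biopsies were sequenced as stranded mRNA libraries with single-end reads. Per the study's methods and the labels, reads were trimmed, mapped with HISAT2 (bovine build UMD3.1) and counted per gene by the authors with FeatureCounts on the Ensembl annotation, and the authors deposited whole-number read counts, which were used here as deposited. Tool versions and the strand setting of the counting are not given in the sources used here, so that reads of overlapping genes may be shared. The submitters' processing notes also name StringTie and edgeR. The table pairs no symbols with its Ensembl identifiers, and symbols were taken from the study's supplementary lists, for names only.

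The members are all genes of those lists that matched the name rule, every one is described, and of the other matrix genes up to 3 called genes in each direction were named per comparison. Members and lists were chosen with earlier results of these data known. Genes were filtered with filterByExpr, scaled by TMM and tested with quasi-likelihood tests in edgeR 4.0.16 (R 4.3.3) with BH adjustment over all genes tested, in a fit of the 4 CycW5 and NoCycW5 groups (43 libraries) and a fit of all 6 groups (50 libraries). The study's own model had the cow as a random effect, which could not be fitted here because the labels do not link libraries to cows. Of the cows enrolled, the study retained some for its comparisons, and these could not be told from the labels, so all libraries with a group were used. P values are given only for the change between weeks in CycNoP4, since the other comparisons hold libraries that chose the members. The spread behind those P values was estimated over all 6 groups, so it too draws in part on such libraries. Correlations of gene pairs are given without P. Tests had been planned for the other comparisons and for the correlations. Alternatives were DESeq2 size factors, DESeq2 1.42.0, limma-voom (limma 3.58.1), other filters on low counts, only the compared groups, and each library left out in turn. The pipeline was tested on simulated data with 200 changed genes. For the change in CycNoP4 it recovered 48% of 2-fold and 68% of 4-fold changes, with 8 false calls. For CycW5 minus NoCycW5 at week 5 it recovered 69% and 92%, and for the change in NoCycW5 72% and 94%. A gene that did not pass in CycNoP4 may therefore still have changed. No pair of libraries had counts alike within sampling noise.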

Additional observations from a re-analysis of the deposited data

Results flagged for a closer look

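Among 87 sets of values (29 genes in the groups of 4 to 10 libraries), 6 had a library far from the others of its group by Dixon's test, and chance gives about 1 in 20. In CycW5 at week 5, library 57 had the lowest ADAM12, 1.94 CPM, with the next at 21.1 CPM, and library 52 the highest FN1, 3279.8 CPM. In CycNoP4 at week 5, library 56 had the lowest FBLN1, 835 CPM, and library 64 the lowest ITGAV, 102 CPM. In CycW5 at week 9, library 83 had the highest ITGB6, 35.5 CPM, and library 89 the highest THBS2, 24.9 CPM.

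The interaction term of the edgeR fit called a different change between the weeks in NoCycW5 and CycW5 for 6 of the 29 genes. Over all genes it called 7.82%. On the log2 scale, the change in NoCycW5 minus that in CycW5 was 3.48 for ADAM12, 1.57 for ITGA2, 1.16 for ITGA6, -0.78 for FBLN1, -1.45 for COL14A1 and -6.60 for MMP9. Without CycW5 library 89, MMP9 was at -4.14 and no longer called. These values are built from contrasts that chose the genes and are a description.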

How the results depend on the processing

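Counts of called genes among the 29 members and the 34 matrix list genes moved by over 1.5 times mainly where the small CycNoP4 group was compared, where 7 of 14 libraries left out in turn moved the member count against CycW5 and 5 of 14 the matrix list count. Without the 6 libraries that stood apart, a setting chosen after seeing the data, members called were 23 for CycW5 minus NoCycW5 at week 5, 16 for the change in NoCycW5 minus that in CycW5, 11 for CycNoP4 minus NoCycW5 at week 5 and 17 for CycNoP4 minus CycW5, and matrix list genes called were 20, 13 and 20 in the last 3 of these. Those libraries were chosen on the same genes and the share over all genes was not counted, so nothing is read from these counts. With only the compared groups, 7 matrix list genes were called for CycNoP4 minus CycW5. The correlation of NID1 and LAMC1 in CycW5 was 0.763 on CPM without the log. With each library left out in turn, members called ran from 0 to 1 (matrix list 0 to 1) for the change in CycW5, where library 72 gave the 1, from 3 to 9 (3 to 11) for the change in CycNoP4, from 1 to 8 (1 to 9) for CycNoP4 minus NoCycW5 and from 1 to 12 (4 to 15) for CycNoP4 minus CycW5. The share over all genes was not counted in these fits, and the cause was not tested. Of the called members, none reversed under any alternative run. The fit of only the compared groups does not apply to the difference of the changes. No paired analysis was possible because the labels give no cow and the weeks share no library number. The columns of the count table partly alternate between weeks within a status, and this order was not used to pair libraries. With 3 and 4 libraries, CycNoP4 limits the precision, as do the few reads of ADAM20, COL25A1 and MMP9.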
